A study of Mus musculus with 53 samples.

Results

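Mitochondrially encoded transcripts are the RNAs copied from the small circular DNA inside mitochondria, as opposed to the nuclear genome. They were taken here as every gene of the deposited table whose symbol starts with mt-, which gave 37 of 34306 genes. Of these, 13 code for proteins, 2 for ribosomal RNAs and 22 for transfer RNAs. All 37 reached 1 RPKM, a read count scaled to transcript length in kilobases and to library size, in at least 2 of the 12 libraries, as did 11654 genes in all. The 13 protein-coding genes, the 2 rRNA genes, mt-Te and mt-Ts1 reached it in every library, 17 genes together. Only 24 of the 37 reached it in 2 or more TRAP libraries, 9 of them tRNA genes. The other tRNA genes were thus admitted by their level in input, so counts of tRNA genes that were lower in TRAP are a description here.

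Both strands of mitochondrial DNA are copied into long precursor RNAs, in which tRNAs lie between the coding genes and mark where the precursor is cut. The released mRNAs receive short poly(A) tails and are read by ribosomes of the mitochondrion itself, never by those of the cytosol. Their protein products join many nuclear-encoded partners in complexes I, III, IV and V, the respiratory chain and ATP synthase that supply the beating heart with ATP, while complex II is made from nuclear genes alone.

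RNA of adult mouse hearts was sequenced in a pair of fractions, input, which is total cytoplasmic RNA, and TRAP, which is RNA recovered by affinity purification of tagged translating ribosomes. In the CAG mice the tag is expressed in all cell lineages, and in the Tie2 mice a Cre recombinase specific to endothelial cells switches it on, as the labels of a first deposit describe these lines. The labels give those mice a mixed 129/C57BL background. CAG hearts gave 2 libraries each of sham input, sham TRAP, band input and band TRAP. Banding tied the ascending aorta of male mice to a fixed diameter, and the sham operation left out the ligature. CAG and Tie2 hearts without surgery gave 1 input and 1 TRAP library each. Every library, input included, came from a mouse line with the tag, the RNA was pooled, and it passed poly(A) selection before random priming. Whether paired libraries of a group stem from different animals is not stated, and p-values therefore reflect the spread between libraries alone, which may be technical.

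Libraries held between 26568988 and 94878619 reads, the largest being the CAG TRAP library without surgery. The heart label was borne out by cardiomyocyte markers, whose 7 genes summed to between 45577 and 49189 RPKM in the 5 CAG inputs. Endothelial markers, 8 genes, summed to 1650 RPKM in Tie2 TRAP, from 149 RPKM in the input of that line. Fewer cells of a type and less RNA per cell cannot be told apart in such bulk libraries. No genome of the files' build was used, so genes are given by symbol and by their order on the mitochondrial chromosome in RefSeq's GRCm38.p6 table, in which all 37 were found with the same length.

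Transcripts of the mitochondrial genome made up 13.7% to 15.9% of the reads of CAG input RNA and at most 0.293% of those of CAG TRAP RNA. Their share of reads was 15.3% and 14.0% in sham input, 13.7% and 15.9% in band input and 14.3% in the CAG input without surgery. In TRAP it was 0.147% and 0.293% after sham, 0.138% and 0.0587% after banding and 0.0259% without surgery. All 5 TRAP shares lay below all 5 input shares, and their own range, from 0.0259% to 0.293%, was far wider than that of the inputs. Counting error was small beside it: the 95% Wilson interval of the lowest share, which covers counting error only, ran from 0.0256% to 0.0262%.

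Protein-coding transcripts dominated every library. In sham input 1 they took 14.6% of reads, the rRNAs 0.708% and the tRNAs 0.0568%, and in sham TRAP 1 these shares were 0.141%, 0.00513% and 0.000373%. The 4 genes mt-Co1, mt-Cytb, mt-Nd1 and mt-Co2 held between 53.4% and 68.7% of all mitochondrial reads in the 12 libraries. Poly(A) selection was applied to both fractions, and how completely it retained each kind of mitochondrial RNA was not measured.

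**Figure D1:**
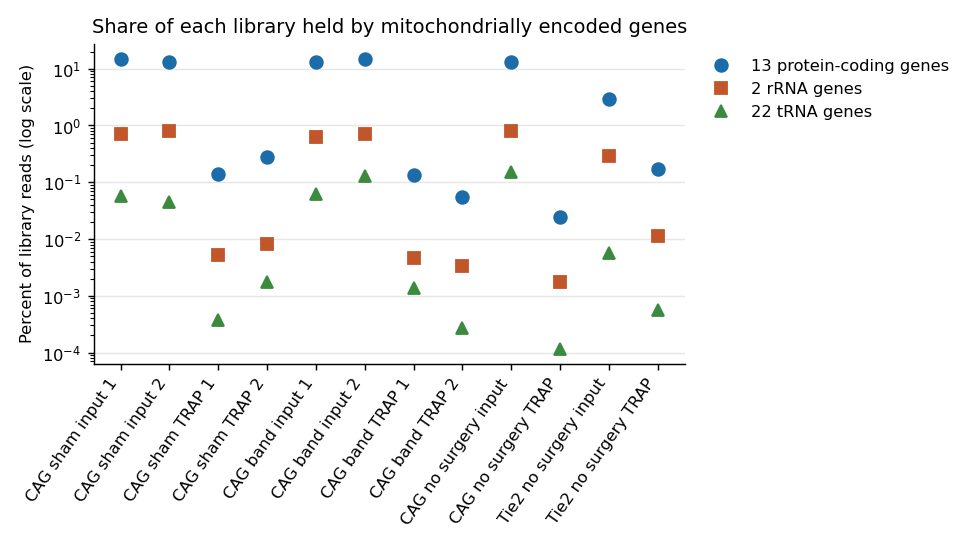
Percent of the reads of each of the 12 libraries (log scale) on the 13 protein-coding, 2 rRNA and 22 tRNA genes of the mitochondrial genome, 1 point per library and class. For protein-coding genes the 5 CAG inputs sit between 12.98% and 15.1%, Tie2 input at 2.88%, and every TRAP library at 0.283% or lower.

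Complex I passes electrons from NADH to ubiquinone, and 7 of its subunits are mitochondrially encoded. mt-Nd1, a subunit of its membrane arm, was the most even of them over input libraries. It stood at 15320.3 and 13807 RPKM in sham input, 14077 and 15058 in band input and 14299 in the CAG input without surgery. TRAP libraries held 135 and 253 RPKM in sham TRAP, 140.1 and 63.2 in band TRAP and 29.7 in the CAG TRAP without surgery. The 5 TRAP values all lay far below the 5 input values, and band TRAP library 2 was the lower of its pair. After sham the log2 fold change of TRAP against input was -6.29 (SE 0.40, limma adjusted p = 0.00019), on the log2(RPKM + 1) scale, and after banding it was -7.26 (SE 0.40, limma adjusted p = 8.8e-05).

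mt-Nd3, a small subunit of the membrane arm, was lowest in TRAP relative to input among the 15 protein-coding and rRNA genes in both operations. Its level was 6271 and 11211 RPKM in sham input, 9154 and 6886 in band input and 4409 in the CAG input without surgery. In TRAP it stood at 26.1 and 32.6 RPKM in sham TRAP, 26.5 and 40.3 in band TRAP and 12.6 in the CAG TRAP without surgery. Its TRAP values did not follow those of the other genes, since band TRAP 2 was its highest library and sham TRAP 2 came second. The log2 fold change was -8.12 after sham (SE 0.31, limma adjusted p = 2.4e-05) and -7.88 after banding (SE 0.31, limma adjusted p = 2.02e-05).

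mt-Nd5 and mt-Nd4 were at the other end. mt-Nd5, a proton-pumping subunit, had 5128 ± 508 RPKM in sham input and 109 ± 46.2 RPKM in sham TRAP (mean ± SD, n = 2), 48.9-fold lower on the log2(RPKM + 1) scale. For mt-Nd4, a related proton-pumping subunit, the means were 8603 ± 2072 and 194 ± 138 RPKM, 50.1-fold lower on that scale. The remaining complex I genes mt-Nd2, mt-Nd4l and mt-Nd6 had log2 fold changes of -6.44, -5.92 and -6.09 after sham. All 7 were called lower after both operations. mt-Nd4l and mt-Nd4 overlap on the chromosome, as do mt-Atp8 and mt-Atp6, and the sources used here do not say how shared reads were counted.

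Complex III has a single mitochondrially encoded subunit, cytochrome b, made from mt-Cytb. Its level was 21987 and 18527 RPKM in sham input, 18796 and 21186 in band input and 16949 in the CAG input without surgery. TRAP libraries held 145 and 295 RPKM in sham TRAP, 120.1 and 70.5 in band TRAP and 31.8 in the CAG TRAP without surgery. Sham TRAP 2 was the highest TRAP library and the one without surgery the lowest. It fell by 6.60 on the log2 scale in sham TRAP (SE 0.36, limma adjusted p = 9.75e-05) and fell by 7.74 in band TRAP (SE 0.36, limma adjusted p = 3.96e-05).

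Complex IV, cytochrome c oxidase, hands electrons to oxygen, and mt-Co1 encodes its catalytic core. mt-Co1 was the most abundant mitochondrial transcript per length in 4 of the 5 CAG inputs. It stood at 27394 and 26459 RPKM in sham input, 23166 and 23591 in band input and 20694 in the CAG input without surgery. TRAP libraries held 391 and 629 RPKM in sham TRAP, 245 and 100.3 in band TRAP and 44.2 in the CAG TRAP without surgery. The fractions were far apart, and sham TRAP 2 was again the highest TRAP library. mt-Co1 was called lower with log2 fold changes of -5.76 after sham (SE 0.39, limma adjusted p = 0.000243) and -7.21 after banding (SE 0.39, limma adjusted p = 8.8e-05). mt-Co3, a further core subunit, had 12546 ± 1959.7 RPKM in sham input and 144 ± 99.6 RPKM in sham TRAP (mean ± SD, n = 2), and was called lower too. mt-Co2, which takes up electrons from cytochrome c, had log2 fold changes of -6.81 and -7.67.

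Complex V is the ATP synthase, to whose membrane part mt-Atp6 and mt-Atp8 contribute. mt-Atp8 was the least steady protein-coding gene in both fractions, with 1303 and 818 RPKM in sham input, 1229 and 3583 in band input and 3109 in the CAG input without surgery. Its TRAP levels were 2.63 and 54.2 RPKM in sham TRAP, 19.6 and 3.81 in band TRAP and 1.65 in the CAG TRAP without surgery. Its sham TRAP libraries differed from each other by more than its sham inputs did, at 19 reads in library 1 and 462 in library 2. The log2 fold change after sham, -6.19, had the largest error of the protein-coding genes (SE 1.27, limma adjusted p = 0.00934), and it lost its call without sham input library 1. mt-Atp6 had -6.73 after sham and -7.63 after banding and was called lower in both.

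The ribosomal RNAs mt-Rnr1 and mt-Rnr2 form the small and large subunit of the mitochondrial ribosome. mt-Rnr1 stood at 2556 and 2433 RPKM in sham input, 1607 and 1706 in band input and 1627 in the CAG input without surgery. Its TRAP levels were 14.3 and 26.0 RPKM in sham TRAP, 12.4 and 8.89 in band TRAP and 4.79 in the CAG TRAP without surgery, the highest again in sham TRAP 2. mt-Rnr2, the longer of them, stood at 2936 and 3557 RPKM in sham input, 3034 and 3464 in band input and 3979.9 in the CAG input without surgery. In TRAP it reached 23.8 and 36.4 RPKM in sham TRAP, 22.4 and 16.0 in band TRAP and 8.19 in the CAG TRAP without surgery. Input and TRAP did not overlap for either gene, and the errors were among the smallest of the 37 genes. Log2 fold changes after sham were -6.94 for mt-Rnr1 (SE 0.26, limma adjusted p = 2.4e-05) and -6.73 for mt-Rnr2 (SE 0.23, limma adjusted p = 1.85e-05).

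Of the 37 genes, 31 were called lower in TRAP after sham and 0 higher, where 24.5% of all genes tested were called lower. After banding 34 were called lower and 0 higher, where 26.0% of all genes were called lower. Without surgery, where each fraction has 1 library and no replicate check, 37 of 37 stood in CAG TRAP below 1/2 of their input level, as did 21.4% of all genes tested. Here and below, counts of lower levels in TRAP over all 37 are a description. Only 24 of the 37 reached 1 RPKM in 2 or more TRAP libraries, and the others were admitted by their input level. All 15 protein-coding and rRNA genes were among the called ones in both operations. Their median log2 fold change was -6.44 after sham and -7.29 after banding, beside -0.09 and -0.10 over all genes tested. For 33 of the 37 genes the 5 CAG TRAP libraries all lay below the 5 CAG inputs, which held for 24.5% of all genes tested. The exceptions were mt-Td, mt-Tf, mt-Tl2 and mt-Tv. The band comparison rests on TRAP libraries of unequal mitochondrial share, 0.138% and 0.0587%.

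**Figure D2:**
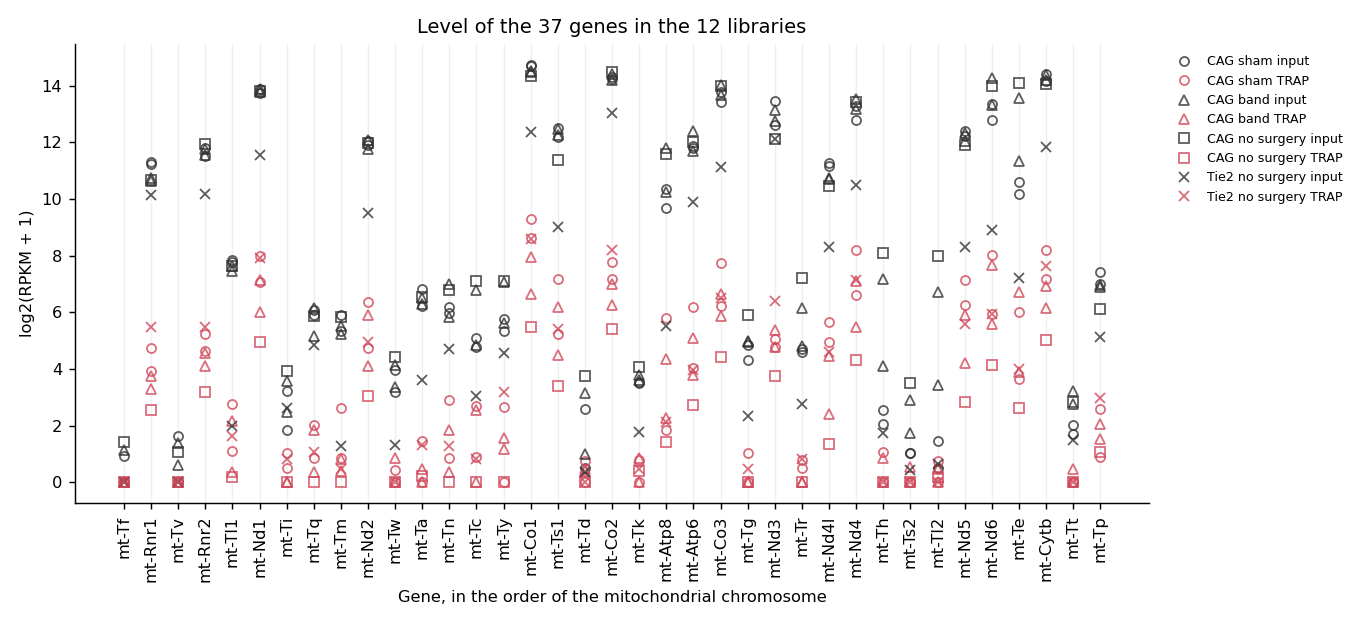
Level of each of the 37 genes as log2(RPKM + 1) in all 12 libraries, genes in the order of the mitochondrial chromosome, input in grey and TRAP in red, with symbols for operation and mouse line. Every protein-coding and rRNA gene has its 5 CAG TRAP points below its 5 CAG input points, and mt-Tf and mt-Tv lie near 0 in both fractions.

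Transfer RNAs carry amino acids to the mitochondrial ribosome, and their genes were read far less. They are 59 to 75 bases long, and library fragments, selected at 150 to 300 base pairs, were longer. How much of each fragment was copied RNA was not examined. mt-Te and mt-Ts1 alone held between 69.9% and 92.8% of all tRNA reads in the 12 libraries. mt-Ts1, a serine tRNA that follows mt-Co1 on the chromosome, stood at 5816 and 4636 RPKM in sham input, 5741 and 4879 in band input and 2664 in the CAG input without surgery. TRAP libraries held 36.4 and 145 RPKM in sham TRAP, 72.6 and 21.3 in band TRAP and 9.62 in the CAG TRAP without surgery. mt-Te, the glutamate tRNA between mt-Nd6 and mt-Cytb, stood at 1559 and 1159 RPKM in sham input, 2589 and 12247 in band input and 17679 in the CAG input without surgery. Its TRAP levels were 11.5 and 63.4 RPKM in sham TRAP, 104 and 13.7 in band TRAP and 5.19 in the CAG TRAP without surgery. In both genes TRAP and input were apart, and the input values of mt-Te were spread widely. After sham mt-Te was called lower with a log2 fold change of -5.57 (SE 1.16, limma adjusted p = 0.00989), a call that was lost with no filter on low values, without sham input library 1 and without sham TRAP library 1. Both are encoded on the strand opposite to most genes, and a library that does not mark strand cannot tell their reads from RNA of the other strand.

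After sham 16 of 22 tRNA genes were called lower in TRAP, where 24.5% of all genes tested were. After banding 19 of 22 were, beside 26.0% of all genes. Only 9 of the 22 reached 1 RPKM in 2 or more TRAP libraries. The others were admitted by their input level, so these counts are a description. Uncalled after sham were mt-Td, mt-Tf, mt-Th, mt-Tl2, mt-Ts2 and mt-Tv, and after banding mt-Td, mt-Tf and mt-Tv. mt-Tf and mt-Tv, the phenylalanine and valine tRNAs on either side of mt-Rnr1, held at most 7 reads in any library and 0 in every TRAP library, so no difference was detectable at this depth. Where both TRAP libraries held 0 reads, a bound was taken from 3 reads per library, which covers counting error only. Against it mt-Tt, the threonine tRNA, was at least 2.28-fold lower in sham TRAP. In band TRAP mt-Tr, the arginine tRNA, was at least 46.5-fold lower, mt-Tg, the glycine tRNA, at least 29.2-fold lower and mt-Ti, the isoleucine tRNA, at least 7.47-fold lower.

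What remained in TRAP can be given as the residual, the RPKM in TRAP as a percent of that in the same-numbered input. Over the 15 protein-coding and rRNA genes its median was 0.658% and 1.92% after sham, 0.995% and 0.346% after banding and 0.181% in the CAG pair that had no operation. Whether same-numbered libraries share a source is not stated, so these pairs are a convention. Within sham pair 1 residuals ran from 0.202% for mt-Atp8 to 1.43% for mt-Co1, and within sham pair 2 from 0.291% for mt-Nd3 to 6.62% for mt-Atp8. In band pair 1 they ran from 0.290% for mt-Nd3 to 1.98% for mt-Nd6, in band pair 2 from 0.106% for mt-Atp8 to 0.585% for mt-Nd3, and without surgery from 0.0532% for mt-Atp8 to 0.294% for mt-Rnr1. The order of the genes was therefore not the same from pair to pair, and mt-Nd3 and mt-Atp8 stood lowest in some pairs and highest in others.

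Most of these genes ranked the TRAP libraries alike. Of the 15 protein-coding and rRNA genes, 14 were highest in sham TRAP 2 among the 5 CAG TRAP libraries, mt-Nd3 being the exception, where 18.2% of all genes tested were. All 15 were lowest in the CAG TRAP without surgery, as were 45.6% of all genes. In 14 of 15, band TRAP 1 exceeded band TRAP 2, as in 58.5% of all genes. For scale, haemoglobin mRNA and the nuclear noncoding RNA Malat1 also stood far lower in TRAP than in input, but were retained more. The residual of Hbb-b1 was 7.49% and 8.10% in the sham pairs. It was 5.22% and 5.67% after banding and 6.44% in the CAG pair without an operation. That of Malat1 was 5.96% and 6.55% after sham, 7.43% and 3.62% after banding and 2.08% without an operation. Taken as a ratio, the sham pairs of both genes were closer to each other than those of any of the 15 mitochondrial genes. After banding this did not hold for Malat1, since mt-Rnr1 stood at 0.775% and 0.521%. With RPKM rescaled to the reads on all other genes, the median residual of the 15 genes was 1.12% after sham, against 1.31% from the means as deposited, and 0.549% after banding, against 0.644%.

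**Figure D3:**
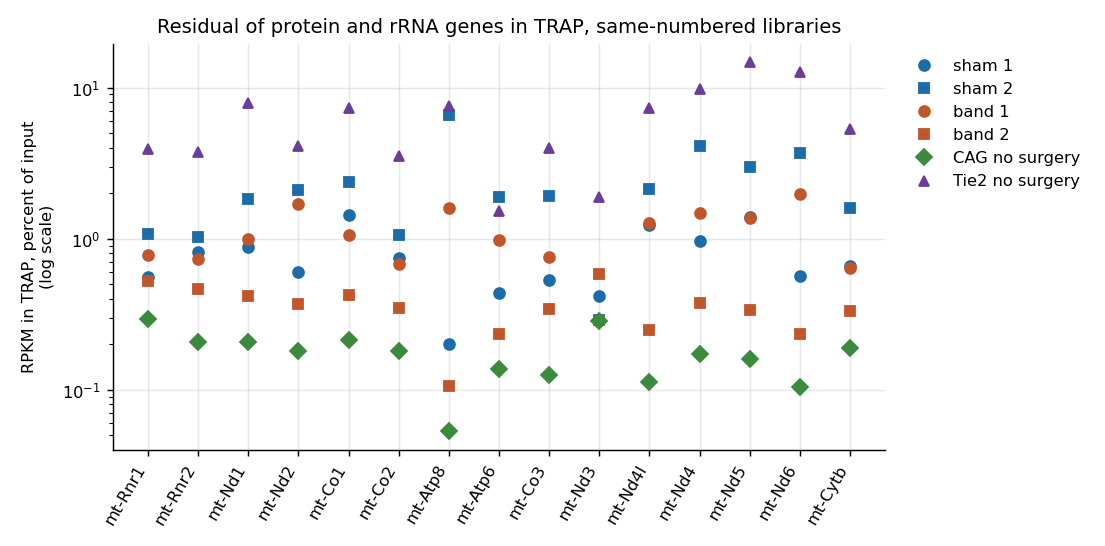
RPKM in TRAP as a percent of the same-numbered input (log scale) for the 13 protein-coding and 2 rRNA genes, 1 point per gene for each of 6 pairs of libraries. The CAG pair without surgery lies lowest with a median of 0.181%, sham pair 2 is the highest CAG pair with 1.92%, and the Tie2 pair is higher still with 5.32%.

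The nuclear-encoded partners of these proteins had a median on the other side of 0. Of 83 nuclear subunits of complexes I to V that were tested, 64 were called higher in TRAP after sham and 0 lower, their median being 0.66 and their highest 1.14 on the log2 scale. After banding 63 were called higher and 0 lower (median 0.62), where 16.6% of all genes were called higher. By complex, 32 of 38 nuclear complex I genes, 3 of 4 of complex II, 6 of 9 of complex III, 15 of 16 of complex IV and 8 of 16 of complex V were called higher after sham, beside 15.1% of all genes. The lowest nuclear subunit stood at -0.36 after sham and -0.60 after banding, and the 13 mitochondrially encoded subunits all stood at -5.61 or lower, so the ranges did not overlap. Rescaling RPKM to the reads on all other genes moved the median of all genes after sham from -0.09 to -0.26. Of the 83, 49 were then called higher and 1 lower (median 0.44), beside 900 higher and 4617 lower of 11964 genes. Quantile normalization moved the median of all genes to 0.05. With it 53 of the 83 were called higher and 1 lower (median 0.48), beside 2053 higher and 1851 lower of 11654 genes. The 15 protein-coding and rRNA genes of the mitochondrial genome were called lower under both scalings.

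Within complex IV the contrast can be read from single genes. Cox6a2, a heart and muscle isoform of a nuclear subunit, stood at 18038 and 17771 RPKM in sham input and 33957 and 32567 RPKM in sham TRAP. In sham input it was close in level per length to mt-Co2, at 19441 and 20576 RPKM, which stood at 145 and 217 RPKM in sham TRAP. Proteins of the mitochondrial ribosome, which translates the mitochondrial mRNAs and is made from nuclear genes, had 50 of 76 called higher and 0 lower after sham (median 0.53). Factors of mitochondrial transcription, RNA processing and translation were mixed, with 7 of 35 higher and 4 lower (median 0.04), beside 15.1% of all genes called higher and 24.5% lower. With the rescaled values, which lower ratios of TRAP to input, 3 were higher and 7 lower. Of the 11964 genes then tested, 900 were higher and 4617 lower. The median of these factors, -0.13, lay above the -0.26 of all genes then tested.

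**Figure D4:**
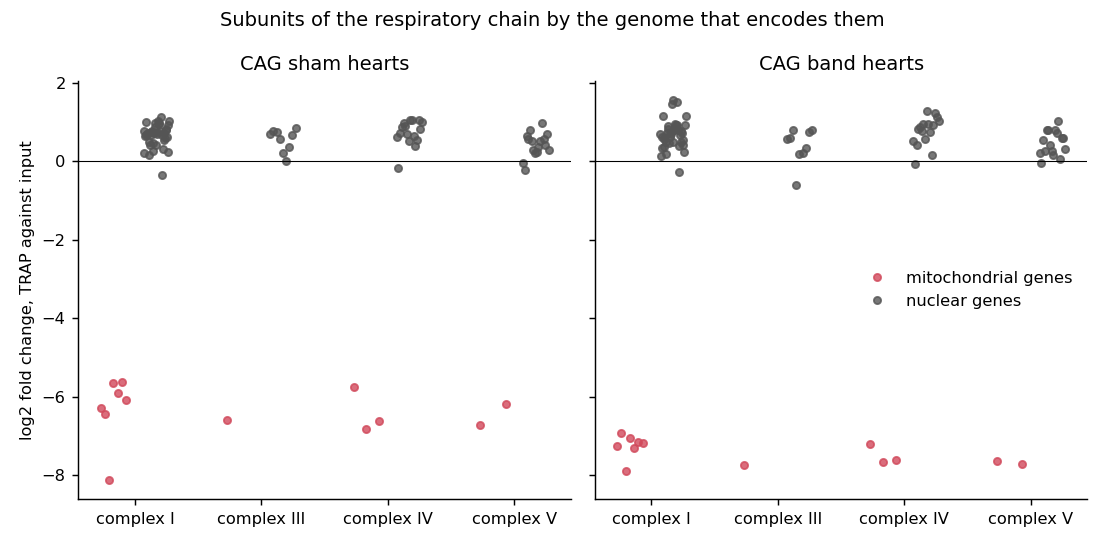
Log2 fold change of TRAP against input for the mitochondrially encoded (red) and nuclear-encoded (grey) subunits of complexes I, III, IV and V, 1 point per gene, after sham (left) and banding (right). Mitochondrial genes lie at -5.61 or lower after sham and at -6.92 or lower after banding, and no nuclear subunit lies below -0.60.

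Other genes as low in TRAP were few among those abundant enough to be compared. On the log2(RPKM + 1) scale a gene cannot fall further than its input level allows, and 1198 non-member genes were high enough in sham input to reach the value of the least negative protein-coding or rRNA gene, -5.61. Of these, 3 did. After banding 631 were high enough in input to reach -6.92, and 1 did. The 5 most alike on that scale, which favours genes of high input level, were AC161763.1, Gm13341, AC134325.1, AC118255.1 and AC161805.1. Gm13341 stood at 277 and 379.6 RPKM in sham input and 4.58 and 5.20 RPKM in sham TRAP. AC161763.1, listed with a length of 71 bases, stood at 218 and 228 RPKM in sham input and 0 and 0.674 RPKM in sham TRAP. The nuclear genome of the mouse carries copies of mitochondrial DNA, and the sources used here do not say how reads matching such a copy were assigned, so levels of genes with such copies are uncertain.

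Band was compared with sham in input RNA to ask which mitochondrial transcripts differ under pressure overload. The share of reads overlapped between groups, at 15.3% and 14.0% after sham and 13.7% and 15.9% after banding. Of the 37 genes, 1 was called higher and 0 lower by limma, where 4.08% of all genes tested were called in either direction. At an unadjusted p under 0.05 there were 4, where 19.3% of all genes passed. The median over protein-coding and rRNA genes was 0.00 on the log2 scale, and values ran from -0.59 for mt-Rnr1 (limma adjusted p = 0.277) to 1.02 for mt-Atp8. Among these genes mt-Rnr1, mt-Nd4l and mt-Co1 were lower in both band inputs than in both sham inputs, and none was called. In the CAG input without surgery mt-Rnr1 stood at 1627 RPKM, between its band inputs. mt-Nd4l and mt-Co1 stood there at 1393 and 20694 RPKM, below their band inputs. The fit gave each gene a single error over input and TRAP libraries together. Spread in TRAP thus entered the input comparison, and a missing call does not show equal levels.

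The called gene was mt-Tt, the threonine tRNA, at 3.05 and 2.26 RPKM after sham and 8.34 and 5.78 RPKM after banding. These values stand for 10, 5, 16 and 14 reads. The CAG input without surgery stood at 6.18 RPKM, or 11 reads, between the band inputs, so that level was not particular to banding. The log2 fold change was 1.13 (SE 0.21, limma adjusted p = 0.0352), and 5 of 12 other settings also put it under 0.05, with adjusted p from 0.0217 to 0.351. Leaving out any of the 4 libraries ended the call.

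Larger but less even differences were seen in 3 tRNA genes that follow each other between mt-Nd4 and mt-Nd5, mt-Th, mt-Ts2 and mt-Tl2, for histidine, serine and leucine. mt-Tl2 stood at 1.73 and 0.426 RPKM in sham input, 9.84 and 104 in band input and 250.2 in the CAG input without surgery. mt-Th stood at 4.89 and 3.16 RPKM in sham input, 16.2 and 143 in band input and 275 in the CAG input without surgery. mt-Ts2 stood at 1.04 and 1.03 RPKM in sham input, 2.37 and 6.56 in band input and 10.2 in the CAG input without surgery. Reads in sham input were few, at 6 and 1 for mt-Tl2, 16 and 7 for mt-Th and 3 and 2 for mt-Ts2. All 3 genes had both band inputs above both sham inputs, and all 3 were higher still without surgery, so high values were not particular to banding. Log2 fold changes of band against sham were 4.09 for mt-Tl2 (limma adjusted p = 0.0639, 0.0210 to 0.344 in other settings), 3.33 for mt-Th (limma adjusted p = 0.105, 0.0398 to 0.422) and 1.31 for mt-Ts2 (limma adjusted p = 0.101, 0.0445 to 0.389). Without band input 1, 4 of the 37 genes were called higher, where 0.429% of all genes tested were. In all, 8 genes had both band inputs above both sham inputs, where 28.7% of all genes tested did.

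Many of the mitochondrial tRNA genes differed more among the 5 CAG inputs than most genes did. The highest input exceeded the lowest more than 3 times in 14 of the 37 genes, 13 of them tRNA genes, beside 5.16% of all genes tested and a median ratio of 1.38 over all genes. Among the 13 were mt-Tf and mt-Tv, whose lowest input held 0 reads. In mt-Td, mt-Tl2 and mt-Ts2 the lowest input held 1, 1 and 2 reads, so their place in this count rests on very few reads. The ratio was 587 for mt-Tl2, over an input of 1 read, and 87.1 for mt-Th, over an input of 7 reads. It was 15.3 for mt-Te and 4.38 for mt-Atp8. mt-Nd1, at 1.11, and mt-Co2, at 1.23, were steady in the same libraries. Band input 2 and the CAG input without surgery were the 2 highest libraries for 19 of the 37 genes, 13 of them tRNA and 6 protein-coding genes, where 9.06% of all genes tested had that order. mt-Nd6, the only protein-coding gene on the strand of mt-Te, stood at 10507 and 7064 RPKM in sham input, 10262 and 19873 in band input and 16173 in the CAG input without surgery, and so shared the order. mt-Nd3 and mt-Ts1 ran against it, with mt-Nd3 highest in sham input 2 and both lowest without surgery. All other genes of 59 to 75 bases together held between 0.00451% and 0.00576% of reads in these 5 inputs, against 0.0454% to 0.152% for the mitochondrial tRNA genes. Adipocyte markers stood apart in 1 of the 5 libraries, with 108 RPKM in the CAG input without surgery and 2.46 to 5.83 RPKM in the others, and their part in the result was not tested.

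**Figure D5:**
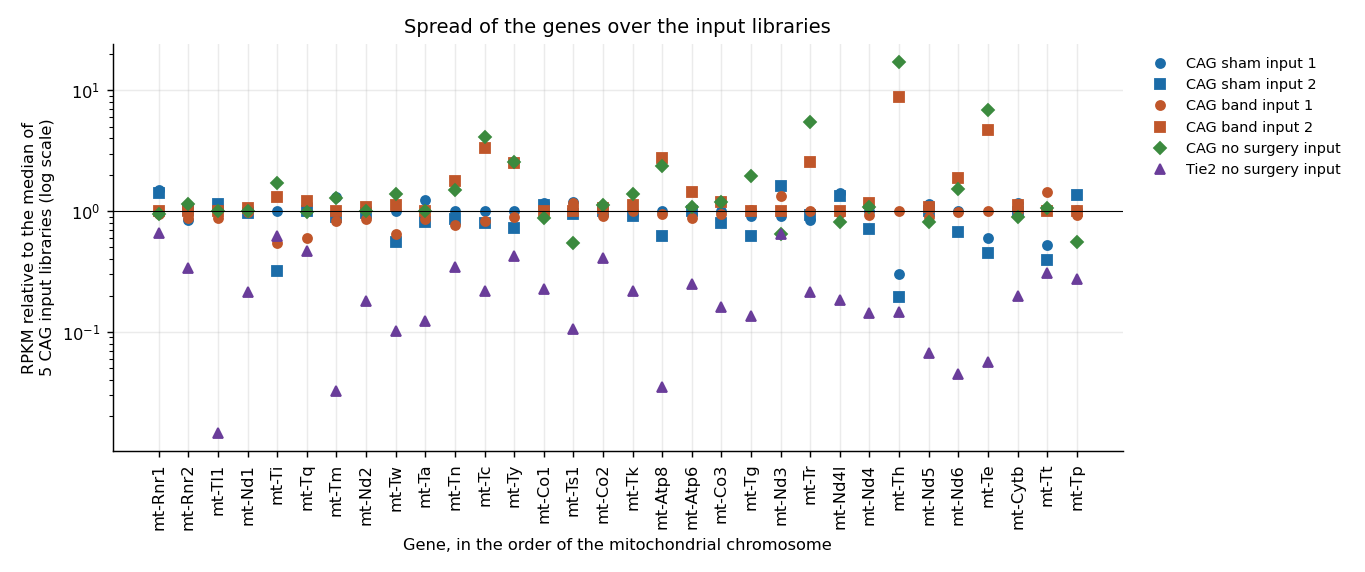
RPKM in 6 input libraries relative to the median of the 5 CAG inputs (log scale), for the genes with more than 3 reads in sham input 2, in the order of the mitochondrial chromosome. Most protein-coding and rRNA genes lie near 1 in the CAG inputs, mt-Atp8, mt-Nd3 and mt-Nd6 being more spread, mt-Th and mt-Te lie well above it in band input 2 and without surgery, and the Tie2 input lies below 1 for all genes shown.

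In TRAP RNA band was set against sham to ask whether levels in TRAP differed with the operation. By limma 0 of the 37 genes were called, where 3.77% of all genes tested were. At an unadjusted p under 0.05 there were 8, all of them among the 15 protein-coding and rRNA genes, where 19.7% of all genes passed. Over the 15 protein-coding and rRNA genes 14 values lay below 0, with a median of -0.82, from -1.88 for mt-Nd4l to 0.16 for mt-Nd3. Both band TRAP libraries lay below both sham TRAP libraries in 7 of these 15 genes and in 10 of the 37, where 22.4% of all genes tested had that order.

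mt-Co1 had the lowest adjusted p among the 15, with 391 and 629 RPKM in sham TRAP and 245 and 100.3 RPKM in band TRAP. Both sham libraries were above both band libraries. The log2 fold change was -1.65 (SE 0.39, limma adjusted p = 0.0716, 0.00187 to 0.338 in other settings). For mt-Nd4l the sham TRAP values were 30.1 and 49.5 RPKM and the band TRAP values 20.9 and 4.32 RPKM, the second band library accounting for most of the distance. Its adjusted p by limma was 0.135, and 0.000786 to 0.480 in other settings. Without band TRAP library 1, 7 of the 37 genes were called lower, where 9.34% of all genes tested were. Without band TRAP library 2, 2 were, where 7.57% of all genes were.

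The interaction, which asks whether the ratio of TRAP to input differed between band and sham, was called by limma for 0 of the 37 genes and for 0.00% of all genes tested. At an unadjusted p under 0.05 there were 5 of the 37, 4 of them tRNA genes, where 4.78% of all genes passed. Median values were -0.98 over the 15 protein-coding and rRNA genes and 0.00 over all genes. mt-Tl2 had the lowest value, -4.24 (SE 1.33, limma adjusted p = 0.904), and was not called in other settings. It held 0 and 2 reads in sham TRAP and 1 and 0 in band TRAP. Its value therefore mostly repeats the input difference of 4.09 with the sign turned, and says little about the ratio. The same held for mt-Th, at -3.44 beside 3.33 in input, with 0 and 3 reads in sham TRAP and 2 and 0 in band TRAP. Without band TRAP library 1, 3 of the 37 genes were called lower, where 1.60% of all genes were. These comparisons share their sham and band libraries with those above.

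Tie2 hearts gave a single input and a single TRAP library without surgery, so their values have no replicate check. Their input held 3.17% mitochondrial reads, below the 13.7% to 15.9% of the 5 CAG inputs. It lay below all 5 CAG inputs in 32 of the 37 genes, where 21.9% of all genes tested did, and below 1/2 of the CAG median in 34, where 4.90% did. The distance was uneven from gene to gene. mt-Rnr1 and mt-Nd3 were 1.52 and 1.55 times below the CAG median and mt-Co2 2.43 times. mt-Co1 was 4.43 times below it, mt-Nd5 14.9, mt-Nd6 22.2 and mt-Atp8 28.8 times. Among tRNA genes mt-Tl1, a leucine tRNA, was farthest, with 11 reads and 2.92 RPKM against 175 to 228 RPKM in CAG inputs.

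Nuclear genes of the same complexes did not share this. Of their 83 tested genes, 8 lay below all 5 CAG inputs and 51 above all 5, where 39.7% of all genes tested lay above, and their median ratio to the CAG median was 1.17, beside 1.08 for all genes and 0.197 for the 15 protein-coding and rRNA genes. Cox6a2 stood at 27054 RPKM in Tie2 input and between 17090.0 and 21869 RPKM in the CAG inputs. Cardiomyocyte markers summed to 62913 RPKM in Tie2 input, above the CAG inputs. Fibroblast markers, 5 genes, summed to 174 RPKM in Tie2 input, and between 177 and 211 RPKM in the CAG inputs. Macrophage and leukocyte markers, also 5 genes, summed to 105 RPKM, within the CAG range of 88.0 to 149 RPKM. Smooth muscle and pericyte markers reached 305 RPKM, above the CAG range of 173 to 221 RPKM, and erythroid markers 2565 RPKM against 1412 to 2555 RPKM. Adipocyte markers, 3 genes, reached 99.1 RPKM, within the CAG range of 2.46 to 108 RPKM. Mouse line, library and heart cannot be told apart in this comparison.

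Tie2 TRAP RNA kept a larger part of the mitochondrial transcripts of its own input. The share of reads was 0.183% in Tie2 TRAP, inside the range of the 5 CAG TRAP libraries, and 34 of the 37 genes stood below 1/2 of their Tie2 input level, where 17.5% of all genes tested did. The residual over the 15 protein-coding and rRNA genes had a median of 5.32% and ran from 1.53% for mt-Atp6 to 14.7% for mt-Nd5. It was above all 5 CAG residuals in 14 of these 15 genes, mt-Atp6 being the exception, where 61.9% of all genes tested had that order. The levels in Tie2 TRAP themselves exceeded all 5 CAG TRAP libraries in 4 of the 15 genes, mt-Co2, mt-Nd3, mt-Rnr1 and mt-Rnr2, where 62.6% of all genes tested did. In the other genes Tie2 TRAP did not exceed the highest CAG TRAP library. mt-Rnr1 stood at 43.7 RPKM in Tie2 TRAP and between 4.79 and 26.0 RPKM in CAG TRAP, and mt-Co1 at 388 RPKM, between its sham and band values.

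Cardiomyocyte transcripts also stood far below input in Tie2 TRAP. The cardiomyocyte markers summed to 3113 RPKM there, 4.95% of Tie2 input, with Tnnt2, cardiac troponin T, at 7.53% and Myh6, the alpha myosin heavy chain, at 5.79%. Endothelial markers stood at 1111% of input, macrophage and leukocyte markers at 865% and fibroblast markers at 286%. The part of any of these cells in the mitochondrial residual was not tested. The 83 nuclear subunits of complexes I to V had a median of 19.5% of input in Tie2 TRAP, and all genes tested a median of 153%.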

How the data were processed

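RPKM values of 34306 genes in 12 libraries were deposited by the authors as 1 table. Its columns were matched by name to the later deposit of 24 samples, whose titles ending in l1 or l2 share a column; the 29 samples of the first deposit were not analysed here. CASAVA 1.8.2, TopHat 1.4 and HTSeq 0.5.3 were used, per the submitters' processing notes, with NCBIM37 as genome build; counting settings were not given in the sources used here. Multiplied by length, 233410 of 233410 positive values fell on whole reads within 0.02 reads, so reads per gene and library totals were recovered. limma 3.58.1 in R 4.3.3 compared groups on log2(RPKM + 1), two-sided, with a variance trend, 1 mean per group and 4 residual and 3.02 prior degrees of freedom. It was run over the 11654 genes that reached 1 RPKM in 2 libraries, with Benjamini-Hochberg adjustment over all of them and calls at an adjusted p under 0.05. The log scale understates changes of genes near 1 RPKM. Other pseudocounts, filters, scalings and fits, and leaving out each library, were alternatives. The fit was tested on simulated data for sham TRAP against input only, with the same spread between libraries set for all genes. That test does not cover genes whose libraries spread more widely, as some members did in TRAP. Named genes were all members, up to 3 of each nuclear list by level in sham input, cell type markers, and the 5 non-members lowest in TRAP relative to input. Members and lists were chosen with earlier results of these data known.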

Additional observations from a re-analysis of the deposited data

How the results depend on the processing

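In TRAP against input, calls were lost in 2 of 169 values of protein-coding genes after sham (mt-Atp8, with no filter on low values and without sham input library 1) and in 0 of 156 after banding, in 0 of 26 and 0 of 24 values of rRNA genes, and in 16 of 284 and 2 of 262 values of tRNA genes. The tRNA genes were measured least precisely, with 4 to 15 of 22 at 0 reads in CAG TRAP libraries, the 15 in the deepest library. Band against sham in input called 1 gene higher, and 0 with a pseudocount of 0.1, 0 with no filter and 0 with the replicate block, and 0 to 4 with a library left out. In TRAP it called 0 genes lower, and 1 with a pseudocount of 0.1 and 0 to 7 with a library left out. The interaction called 0 lower, and 0 to 3 with a library left out. mt-Nd3 in band against sham TRAP stood at 0.16, and between -0.13 (without band TRAP library 2) and 0.45 (without band TRAP library 1) with a library left out. The cause was not tested. A fit with a library left out has 1 library in that group, so its calls describe the fit alone. The 14.7% mean share of reads in the 4 sham and band inputs was 18.3% of summed RPKM. Same-numbered libraries deviated together with correlations of -0.17 and 0.03 (input and TRAP) and -0.05 and -0.43 (sham and band). With so few libraries these values cannot show whether the numbers pair them. The replicate block left 25 of 476 calls over all genes for band against sham in input and 38 of 439 in TRAP. With the sham TRAP numbers crossed, an alternative chosen after seeing the data, 11 of the 37 genes and 166 of all 11654 were called lower in band against sham TRAP. Over all genes, leaving out a library gave 1917 to 2294 calls against 4615 after sham, 2779 to 6269 against 4964 after banding, 26 to 68 against 476 and 33 to 1971 against 439 for band against sham in input and TRAP, and 0 to 197 against 0 for the interaction. No filter gave 207 against 439 in TRAP. After sham 1763 genes were higher and 2852 lower; rescaled to other genes 900 and 4617 were, by quantile normalization 2053 and 1851, and with a filter of 5 RPKM 1641 and 1468. Rescaling moved the median of all genes to -0.26 and left the median residual of the 15 genes at 1.12%. Count models on the recovered reads, planned as alternatives, were not run, since the deposited unit is RPKM.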

Other observations

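2 genes outside the naming rule were looked at after their values were seen. Gm13340, listed with 1545 bases, the listed length of mt-Co1, stood at 34.7 and 30.3 RPKM in sham input and 1.08 and 1.11 RPKM in sham TRAP. Gm13339 stood at 26.4 and 24.6 RPKM and at 0.609 and 0.750 RPKM. Their sequences were not compared with those of the mitochondrial genes.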
